A study of Rattus norvegicus with 10 samples.

Results

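The genes described here code for the enzymes of glycolysis, of the pentose phosphate pathway, and of pyruvate entry and the tricarboxylic acid (TCA) cycle, in cultured rat microglia with and without interferon gamma (IFN-gamma). A list of 44 enzyme genes was looked for, and a gene counted as measured where the platform annotation gave a probe set with that gene's symbol alone. Of the 44, 33 were measured, out of 4737 genes on the array with such a probe set: 21 of glycolysis, 2 of the pentose phosphate pathway and 10 of pyruvate entry and the TCA cycle. Ldha (lactate dehydrogenase A), Tpi1 (triosephosphate isomerase) and Pgd (6-phosphogluconate dehydrogenase) had only probe sets listed with several genes and are not described. Hk3, Gpi, Eno2, Idh3a, Idh3b, Ogdh, Fh and Dld were not listed under their own symbol alone.

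Microglia are the resident macrophages of the brain, and IFN-gamma is a cytokine of T cells and natural killer cells that activates them. Per the labels, the cells were grown from neonatal rat brain, each flask from a single brain, in medium with 15% fetal calf serum, and each dish was seeded on day 15 with 100000 cells. The 5 control cultures (1, 2, 3, 5 and 6) received fresh medium only, and the 3 IFN-gamma cultures (1, 2 and 3) received fresh medium with 100 U/ml IFN-gamma for 16 hours. IFN-gamma culture 1 was measured on 3 technical arrays, which were averaged and counted as 1 sample. The cells are serum-grown neonatal microglia in a dish, and the labels give no other genotype or treatment.

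Glycolysis splits glucose into pyruvate in the cytosol and yields ATP and NADH. The pentose phosphate pathway leaves glycolysis at glucose 6-phosphate, makes NADPH in its oxidative branch, and returns sugars to glycolysis through transketolase and transaldolase. Pyruvate enters mitochondria through the pyruvate dehydrogenase complex, and the TCA cycle oxidises the acetyl-CoA formed. Macrophages are known to change the use of these routes on activation.

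The deposited signal of an array had a median of 7.4 (control culture 3) to 23.7 (IFN-gamma array 1b), so the arrays were quantile normalised. Levels are normalised log2(signal + 16) values, on which a signal of 0 is 4, so fold changes of dim probe sets are understated. The treatment check was met in all 6 IFN-gamma response genes listed (Cd74, Irf1, Gbp2, Psmb8, Psmb9 and Tap1), each higher in the treated cultures. Of the cell type markers, the microglial list had summed signals of 634 to 875 in the controls and 1090 to 1530 with IFN-gamma (7 of 10 markers measured), and without its brightest marker C1qb, which rose, 188 to 428 and 343 to 464, which overlapped. The astrocyte list (7 of 8 measured, 4 of them at a mean level under 5) summed to 556 to 905 and to 238 to 300, most of it Glul, which microglia also express, and to 83.2 to 165 and 95 to 125 without Glul. The fibroblast and meningeal list (5 of 6 measured, 1 under 5) summed to 158 to 225 in the controls and to 118 to 142 with IFN-gamma. These did not overlap, and neither did the sums without its brightest marker Col1a1 (117 to 168 against 75.2 to 98.7). The endothelial (57.4 to 158 against 66.7 to 88.4), neuron (118 to 242 against 124 to 177) and oligodendrocyte sums (79.2 to 202 against 83.6 to 117) overlapped between the groups. The part of these differences in the enzyme results was not tested, and in bulk RNA a change in the share of a cell type cannot be told apart from a change of RNA per cell.

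Transaldolase 1 (Taldo1) of the pentose phosphate pathway rose with IFN-gamma, as did the 3 array control probe sets for the glycolytic enzyme Gapdh and 1 dim probe set of the glycolytic enzyme Pgk1. None of the 56 enzyme probe sets tested passed downward, beside 0.606% of all probe sets tested, and none of the 17 for pyruvate entry and the TCA cycle passed upward, beside 0.927% of all. Shares of that size leave fewer than 1 call among so few probe sets, so these counts of 0 say little about the enzymes. The 33 genes had 65 probe sets. Of these, 56, for 32 genes, were tested with limma, with p-values adjusted by Benjamini-Hochberg over all 8740 probe sets tested and a threshold of 0.05. Gapdh was measured by 6 array control probe sets, and 3 more belonged to hexokinase 1. These 9 controls are outside that fit.

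By limma, 2 of the 56 enzyme probe sets were higher (3.57%), beside 0.927% of all probe sets tested. At an unadjusted p under 0.05, 17 of the 56 differed, 16 of them upward, beside 918 of all 8740, 502 of them upward (5.74%). All 3 IFN-gamma cultures lay above all 5 controls at 12 of the 56 (21.4%), beside 4.28% of all probe sets. They lay below all controls at 0, beside 3.4% of all. The difference was above 0 at 39 of 56 probe sets (69.6%, against 47.3% of all), with a median log2 difference of 0.33 against -0.02 for all. Counting each gene once by its brightest probe set, 1 of 32 genes was higher, 5 had groups that did not overlap (Hk2, Pgam1, Tkt, Taldo1 and Pdk1) and 23 had a difference above 0. Among the 39 enzyme probe sets with a mean level of at least 5 (a signal of 16), 9 lay above all controls (23.1%), beside 6.41% of all probe sets at that level.

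The plot of all measured enzymes in pathway order shows that, by brightest probe set or array control, the largest differences sat in the pentose phosphate genes and in Gapdh. The dimmer Hk2 probe set, which is not plotted, differed by 1.31. Both pentose phosphate genes measured belong to the non-oxidative branch, so the oxidative branch is not described.

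**Figure D1:**
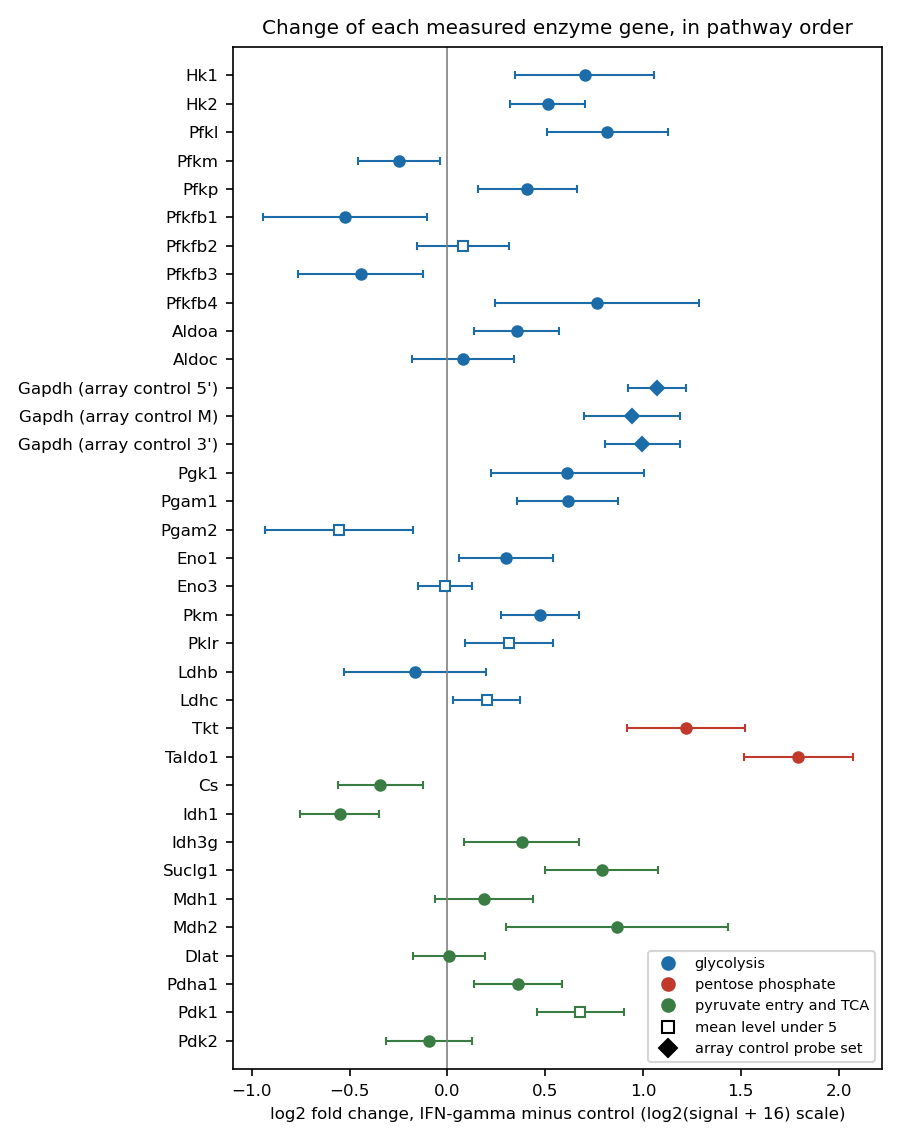
Log2 fold change (IFN-gamma minus control, horizontal axis, on the log2(signal + 16) scale) with its standard error for each measured enzyme gene by its brightest probe set, 5 control against 3 IFN-gamma cultures, with the 3 Gapdh array controls as diamonds and open squares for mean levels under 5. Taldo1 at 1.79 and Tkt at 1.22 lay furthest to the right, followed by the Gapdh controls at 0.94 to 1.07, and the other enzymes lay between -0.55 and 0.87.

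Taldo1 codes for transaldolase, which exchanges carbon units between the sugar phosphates of the non-oxidative branch. Its levels were 7.74, 6.53, 7.02, 6.68 and 7.15 in control cultures 1, 2, 3, 5 and 6, and 9.11, 8.64 and 8.71 in IFN-gamma cultures 1, 2 and 3. All treated cultures lay well above the highest control, culture 1. The mean rose from 7.03 ± 0.474 (SD, n = 5) to 8.82 ± 0.251 (SD, n = 3), a log2 difference of 1.79 with a standard error of 0.278, or 3.46-fold, with a limma adjusted p of 0.0125. The technical arrays of culture 1 had an SD of 0.0934, below the spread between controls. Of 22 other settings, 5 ended the call, with the difference at 1.65 to 2.34: without scaling (2.34, adjusted p = 0.225), without IFN-gamma culture 1 (0.0824), 2 (0.0531) or 3 (0.0672), and with a replicate block (0.104).

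Tkt codes for transketolase, the other enzyme of the non-oxidative branch, and had 2 probe sets. The brighter stood at 7.07, 5.82, 6.58, 6.12 and 6.63 in the controls and at 8.14, 7.495 and 7.37 with IFN-gamma. Again every treated culture was above every control, and control culture 1 was the highest control for both genes. The difference was 1.22 with a standard error of 0.302, or 2.33-fold, and did not pass the limma test (adjusted p = 0.115). The dimmer probe set went from 6.14, 4.28, 5.30, 5.06 and 5.89 to 6.99, 6.74 and 6.53, a difference of 1.42 (2.67-fold, limma adjusted p = 0.149), also with no overlap. The brighter probe set passed in 4 of 22 other settings: with array medians subtracted (1.503, limma adjusted p = 0.0447), with dim probe sets left out (0.049), with a trend in the prior (0.0487) and with all arrays and the culture as a random block (1.34, 0.0299).

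By brightest probe set or array control, the largest differences were those of Taldo1, Tkt and Gapdh. Their promoters are shown as the 250 bases before the annotated start, read from RefSeq's GRCr8 table (5′ to 3′ on the gene's strand). They were searched on both strands for ACGTG (the core bound by hypoxia-inducible factors) and TGACNNNGC (the core of the antioxidant response element bound by NRF2), and matches are in capitals. The second motif was added after the values were seen.
Taldo1, chr1:205922946-205923195, plus strand: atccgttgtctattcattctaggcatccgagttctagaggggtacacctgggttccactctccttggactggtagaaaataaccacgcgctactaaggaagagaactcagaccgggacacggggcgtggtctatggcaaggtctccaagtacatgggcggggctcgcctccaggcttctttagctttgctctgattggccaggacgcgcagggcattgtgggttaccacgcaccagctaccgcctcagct
Tkt, chr16:5729982-5730231, plus strand: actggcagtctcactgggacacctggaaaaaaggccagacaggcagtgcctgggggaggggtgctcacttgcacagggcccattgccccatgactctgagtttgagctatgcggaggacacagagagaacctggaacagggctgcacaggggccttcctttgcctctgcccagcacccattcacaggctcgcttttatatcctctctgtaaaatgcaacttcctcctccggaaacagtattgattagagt
Gapdh, chr4:159652468-159652717, minus strand: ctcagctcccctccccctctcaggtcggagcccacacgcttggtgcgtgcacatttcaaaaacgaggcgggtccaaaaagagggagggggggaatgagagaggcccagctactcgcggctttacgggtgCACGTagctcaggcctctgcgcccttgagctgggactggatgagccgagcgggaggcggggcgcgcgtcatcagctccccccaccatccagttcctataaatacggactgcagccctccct

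The Gapdh stretch held 1 ACGTG match, on the other strand and 121 bases before the start, and the Taldo1 and Tkt windows held none of the 2 motifs. Over the 300-base windows of the table, which add 50 bases after the start, ACGTG occurred in 12 of 36 enzyme windows, covering 32 of the genes looked for, and in 19.3% of all 33469 windows. TGACNNNGC occurred in 6 of 36 and in 12.1% of all. A CACGTG palindrome counts as overlapping ACGTG matches on both strands, as in the windows of Pdk2 and Pfkfb3. These are matches of letters, and the arrays do not measure binding.

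Hexokinases carry out the first step of glycolysis and trap glucose in the cell. Hk2, the inducible form, stood at 5.76, 5.95, 5.93, 6.14 and 5.74 in the controls and at 6.17, 6.29 and 6.80 with IFN-gamma by its brighter probe set. The groups did not overlap, though IFN-gamma culture 1 was only just above control 5, and the difference of 0.51 did not pass (standard error 0.194, limma adjusted p = 0.352, and 0.32 without IFN-gamma culture 3). Technical arrays 1a, 1b and 1c of IFN-gamma culture 1 read 6.20, 6.59 and 5.71 for this probe set, and 1c was below every control. The other Hk2 probe set went from 5.80, 4.25, 4.22, 5.11 and 5.997 to 6.26, 6.41 and 6.48. There the controls were widely spread and the treated cultures close together (difference 1.31, limma adjusted p = 0.25). Hk1, the form found in most tissues, stood at 6.01, 5.51, 4.33, 5.68 and 4.93 against 5.85, 6.26 and 5.88, which overlapped (0.70, limma adjusted p = 0.555, and 0.46 without control 3). Its 3 array controls differed by -0.35 (5′), 0.47 (middle) and 0.49 (3′), and each overlapped between the groups.

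Phosphofructokinase commits sugar to glycolysis. Its liver form Pfkl stood at 6.49, 5.34, 6.45, 6.04 and 5.78 in the controls and at 7.31, 6.81 and 6.38 with IFN-gamma. IFN-gamma cultures 1 and 2 were above all controls and culture 3 was not (0.82, limma adjusted p = 0.355). Differences were -0.25 for the muscle form Pfkm and 0.41 for the platelet form Pfkp, both overlapping. The Pfkfb genes code for the bifunctional enzymes that make and break fructose 2,6-bisphosphate, an activator of phosphofructokinase. The 2 probe sets of Pfkfb3 went opposite ways. The brighter stood at 5.52, 5.39, 4.61, 5.69 and 5.83 against 5.04, 4.41 and 5.45, a difference of -0.44 with overlap (limma adjusted p = 0.76, and -0.16 without IFN-gamma culture 2). The dimmer stood at 5.04, 4.41, 4.78, 4.41 and 5.10 against 5.44, 5.20 and 5.36, a difference of 0.59 with no overlap (limma adjusted p = 0.332). The direction for Pfkfb3 is therefore not settled. Pfkfb4 overlapped widely, at 6.50, 4.74, 6.84, 6.14 and 5.16 against 5.86, 6.68 and 7.38 (0.76, and 0.39 without IFN-gamma culture 3). Pfkfb1 differed by -0.52 (-0.23 without control 3) and Pfkfb2 by 0.08, also with overlap.

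Aldolases split fructose 1,6-bisphosphate. Aldoa stood at 8.40 to 8.89 in the controls and at 8.56 to 9.30 with IFN-gamma (0.35, and 0.21 without IFN-gamma culture 1), and Aldoc differed by 0.08, and both overlapped.

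Gapdh (glyceraldehyde 3-phosphate dehydrogenase), the NADH-making step of glycolysis, is measured on this array by control probe sets at the 5′ end, the middle and the 3′ end of its transcript. The 5′ probe set stood at 9.09, 8.73, 8.96, 8.83 and 9.09 in the controls and at 10.27, 9.88 and 9.88 with IFN-gamma. The middle one stood at 9.07, 8.50, 8.93, 8.41 and 8.95 against 10.12, 9.61 and 9.42. The 3′ one stood at 9.83, 9.58, 9.42, 9.48 and 9.86 against 10.97, 10.52 and 10.41. In all 3 every treated culture lay above every control, with IFN-gamma culture 1 highest. The means rose by 1.07 (standard error 0.149, 2.10-fold) at the 5′ end, 0.94 (0.247, 1.92-fold) in the middle and 0.997 (0.193, 1.995-fold) at the 3′ end. Each exact two-sided permutation p was 0.0179, the smallest that 56 regroupings of 8 cultures can give, and 0.0238 after adjustment over the 4 planned tests on Gapdh. The fourth of these, the 3′ minus 5′ difference, went from 0.69 ± 0.149 (SD, n = 5) in control cultures to 0.62 ± 0.0831 (SD, n = 3) in treated ones (exact permutation p = 0.464). The 3 Gapdh control probe sets for the opposite strand overlapped between the groups, with differences of -0.29, 0.29 and 0.12.

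The beta-actin controls, another gene used as a loading reference, were also higher. Their differences were 0.28 at the 5′ end (groups overlapping), 0.66 in the middle and 0.59 at the 3′ end (both not overlapping). Relative to beta-actin at the same region, Gapdh differed by 0.79 at the 5′ end with no overlap (exact permutation p = 0.0179), adjusted over the 13 added tests to 0.116, but by 0.28 in the middle (exact permutation p = 0.393) and 0.40 at the 3′ end (exact permutation p = 0.161), both with overlap. These tests, and those of the hexokinase and opposite-strand controls, were added after the values were seen. Over all 17 tests on array controls the adjusted exact permutation p of each Gapdh probe set, and of the 5′ end relative to beta-actin, was 0.0607.

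Pgk1 codes for phosphoglycerate kinase, the first ATP-making step, and had 3 probe sets. The brightest stood at 7.77, 7.89, 6.71, 8.27 and 8.21 in the controls and at 8.78, 8.71 and 7.67 with IFN-gamma, with overlap (0.61, limma adjusted p = 0.691, and 0.35 without control 3). The next stood at 7.79, 7.24, 7.89, 7.65 and 7.79 against 8.53, 8.40 and 8.28, with no overlap (0.73, limma adjusted p = 0.129). The dimmest stood at 4.45, 4.52, 4.16, 4.15 and 4.20 against 5.36, 5.13 and 5.05, near the floor of the scale in the controls. This dimmest probe set rose from 4.30 ± 0.174 (SD, n = 5) to 5.18 ± 0.160 (SD, n = 3), a difference of 0.88 with a standard error of 0.168 and a limma adjusted p of 0.037. All 3 probe sets differed in the same direction. The call of the dimmest was lost in 14 of the 20 other settings that held it, with differences of 0.77 to 1.08, among them every other scaling and each IFN-gamma culture left out (limma adjusted p = 0.171, 0.155 and 0.116). Its technical arrays 1a, 1b and 1c read 5.09, 5.03 and 5.95.

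Pgam1, a phosphoglycerate mutase, stood at 8.20, 8.45, 7.35, 8.28 and 8.39 in the controls and at 8.65, 8.71 and 8.90 with IFN-gamma. Control culture 3 was far below the other controls, and the treated cultures lay above all of them by a small margin (0.62, limma adjusted p = 0.431, and 0.42 without control 3). Of its other probe sets, 1 overlapped (0.57) and 1 did not (0.38). The muscle form Pgam2 stood at 4.39, 4.96, 6.29, 5.05 and 4.84 against 4.88, 4.41 and 4.37, with overlap and control 3 highest (-0.55, and -0.26 without it). Enolase 1 (Eno1) differed by 0.30 and by 0.69 in its 2 probe sets, both overlapping, and the first value was 0.017 without IFN-gamma culture 1. Eno3 was at the floor in every culture, with no deposited signal above 1.2.

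Pkm codes for the pyruvate kinase of most tissues, the last step of glycolysis. It stood at 9.04, 9.38, 9.01, 9.14 and 8.98 in the controls and at 9.95, 9.21 and 9.59 with IFN-gamma. IFN-gamma cultures 1 and 3 were above all controls and culture 2 was below control 2 (0.47, standard error 0.201, limma adjusted p = 0.437, and 0.29 without culture 1). The liver form Pklr differed by 0.31, with overlap (0.13 without IFN-gamma culture 2). Of the lactate dehydrogenase genes with a probe set of their own, Ldhb differed by -0.17 and Ldhc by 0.20, and both overlapped.

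**Figure D2:**
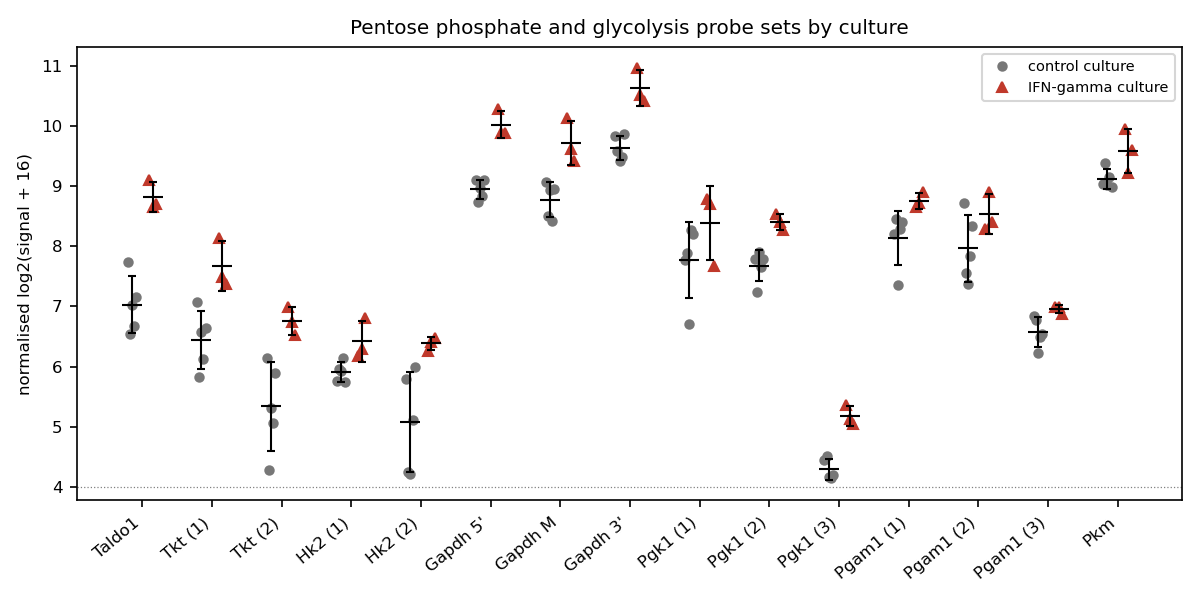
Normalised log2(signal + 16) of each culture (vertical axis) for pentose phosphate and glycolysis probe sets, with controls as grey circles, IFN-gamma cultures as red triangles, black bars for mean ± SD, and a dotted line at 4, where the signal is 0. Numbers in brackets order a gene's probe sets by level. Taldo1, both Tkt probe sets and the 3 Gapdh controls show treated cultures clear of the controls, while the brightest Pgk1 probe set and Pkm overlap.

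Pyruvate dehydrogenase links glycolysis to the TCA cycle. Pdha1, its catalytic alpha subunit, stood at 5.91, 5.97, 5.21, 5.98 and 6.10 in the controls and at 6.10, 6.36 and 6.13 with IFN-gamma. IFN-gamma culture 1 stood just below control 6, and control 3 was again the lowest (0.36, limma adjusted p = 0.676, and 0.21 without control 3). Dlat, the acetyltransferase subunit, hardly differed by its brightest probe set (7.63 to 8.25 in the controls and 7.82 to 8.18 with IFN-gamma, difference 0.01 with a standard error of 0.185). Pdk1, a kinase that switches the complex off, stood at 4.28, 4.39, 4.10, 4.18 and 4.11 against 4.65, 4.57 and 5.46. The groups did not overlap, but the controls were at the floor and culture 3 stood well above the other treated cultures (0.68, limma adjusted p = 0.262, and 0.39 without culture 3). Technical arrays 1a, 1b and 1c of IFN-gamma culture 1 read 4.13, 5.48 and 4.33, so 1a and 1c lay inside the control range. Pdk2 differed by -0.09, with overlap.

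Cs (citrate synthase), the entry step of the cycle, stood at 5.83, 6.73, 6.51, 6.09 and 6.25 in the controls and at 5.96, 5.91 and 5.94 with IFN-gamma. The treated cultures lay close together inside the lower part of the control range (-0.34, limma adjusted p = 0.687). Idh1, the cytosolic NADP-dependent isocitrate dehydrogenase, stood at 6.21, 5.81, 6.09, 5.86 and 5.73 against 5.34, 5.08 and 5.76. IFN-gamma cultures 1 and 2 were below all controls and culture 3 was not (-0.55, standard error 0.203, limma adjusted p = 0.338). Technical arrays 1a, 1b and 1c of IFN-gamma culture 1 read 5.87, 5.71 and 4.44. Array 1a was inside the control range, 1b just below it, and 1c far below. The other Idh1 probe set differed by -0.25 with overlap (limma adjusted p = 0.875). Idh3g, a subunit of the mitochondrial NAD-dependent enzyme, differed by 0.38 with overlap (0.18 without control 2).

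Suclg1, the alpha subunit of succinyl-CoA ligase, stood at 6.74, 5.46, 6.56, 5.92 and 6.19 in the controls and at 6.71, 7.12 and 7.06 with IFN-gamma (0.79, limma adjusted p = 0.338). Only control 1 reached into the treated range. Its other probe set stood at 5.79, 5.84, 5.44, 5.78 and 5.99 against 6.02, 6.55 and 6.65, with no overlap (0.63, limma adjusted p = 0.237). The technical arrays of that probe set read 6.29, 6.75 and 5.00, a wider spread than between the 3 treated cultures. It passed in 1 of 20 other settings, with array 1b alone for IFN-gamma culture 1 (0.88, limma adjusted p = 0.0403).

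The mitochondrial malate dehydrogenase closes the cycle. Mdh2, the mitochondrial form, stood at 7.21, 6.79, 4.36, 6.74 and 6.85 in the controls and at 7.18, 7.29 and 7.31 with IFN-gamma. The difference was 0.87 (standard error 0.567, limma adjusted p = 0.713), and 0.36 without control 3. The other Mdh2 probe set differed by 0.94 with overlap (limma adjusted p = 0.485), and control 3 was again lowest, at 4.29. Mdh1, the cytosolic form, differed by 0.19 with overlap.

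**Figure D3:**
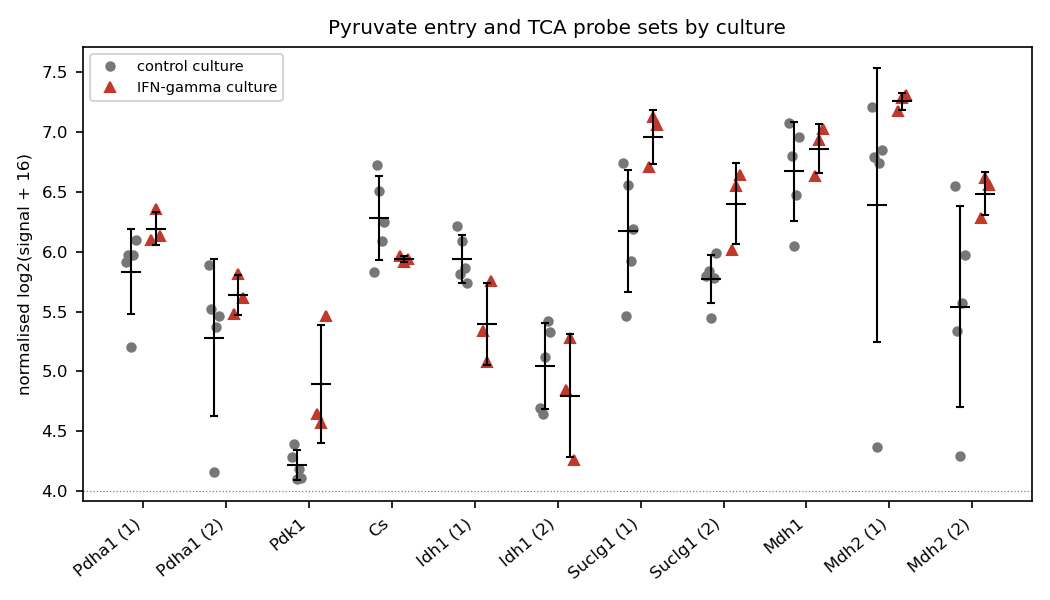
Normalised log2(signal + 16) of each culture (vertical axis) for pyruvate entry and TCA probe sets, with controls as grey circles, IFN-gamma cultures as red triangles, black bars for mean ± SD, and a dotted line at 4, where the signal is 0. Numbers in brackets order a gene's probe sets by level. The groups overlap for all but Pdk1 and the second Suclg1 probe set, and control culture 3 is the lowest point of both Mdh2 probe sets, at 4.36 and 4.29.

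By brightest probe set, the median log2 difference was 0.31 over 20 glycolysis genes (range -0.55 to 0.82), 1.51 over the 2 pentose phosphate genes and 0.28 over 10 genes of pyruvate entry and the TCA cycle (range -0.55 to 0.87). Over all probe sets tested it was -0.02. The glycolysis median was 0.20 without IFN-gamma culture 1, and the TCA median 0.14 without control 3. The glycolysis probe sets lay above all controls at 7 of 36, the pentose phosphate ones at 3 of 3 and the TCA ones at 2 of 17, beside 4.28% of all probe sets. No test compared the pathways with each other.

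Forms of the same enzyme were compared within each culture, in 11 pairs, as the difference between the log2 levels of their brightest probe sets. None of the 11 changes passed after adjustment (adjusted exact permutation p = 0.295 to 0.696), but with 56 regroupings a single pair could reach no adjusted exact permutation p below 0.196 on its own, so that says little. Pdk2 minus Pdk1 moved by -0.77 with a standard error of 0.247 (unadjusted exact permutation p = 0.0536), with the Pdk1 controls at the floor of the scale. Pfkm minus Pfkl moved by -1.06 with a standard error of 0.477 (unadjusted exact permutation p = 0.0714). Mdh2 minus Mdh1 moved by 0.68 with a standard error of 0.365 and with groups that did not overlap, and its controls included culture 3 at -1.68 (0.33 without it). Hk2 minus Hk1 moved by -0.19 with a standard error of 0.4, an interval too wide to show that the hexokinases acted alike.

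Genes next to these pathways were counted from lists. Of 9 glucose and lactate transport genes, none passed by its brightest probe set, beside 0.927% of all probe sets higher and 0.606% lower, shares that also apply to the counts of 0 in the other lists. Slc2a1, the GLUT1 glucose transporter, stood at 6.98, 5.98, 5.89, 6.18 and 7.22 in the controls and 7.90, 8.18 and 8.05 with IFN-gamma by its brightest probe set. The groups did not overlap, and the difference of 1.59 was just short of the threshold (limma adjusted p = 0.0501), passing in 10 of 21 other settings. Its other probe set passed, at 5.71, 4.97, 4.16, 5.12 and 4.92 in the controls and 6.56, 6.80 and 6.38 with IFN-gamma. All treated cultures were above all controls (1.60, 3.04-fold, limma adjusted p = 0.0373). Of 21 other settings 9 ended this call, including (with the limma adjusted p) no scaling (0.159), without IFN-gamma culture 1 (0.158), 2 (0.21) or 3 (0.13), without control 2 (0.085), 5 (0.0807) or 6 (0.0955), and the replicate block (0.25). Bsg, the chaperone of the lactate transporters, differed by 0.84 with overlap, and Slc2a3, the GLUT3 transporter, by -0.58 with overlap. Of 18 further enzyme genes of these pathways, none passed by the brightest probe set. The 3 probe sets of Got2, the mitochondrial aspartate aminotransferase, differed by -0.03, 1.25 and -0.44 from brightest to dimmest, and only the middle one passed (limma adjusted p = 0.026), so the direction for Got2 is not settled. Of 19 other settings 8 ended it, including (with the limma adjusted p) no scaling (0.0877), without IFN-gamma culture 1 (0.0703), 2 (0.149) or 3 (0.0953), without control 2 (0.0582) or 6 (0.0738), and the replicate block (0.274). Got1, the cytosolic form, differed by 0.88 and Sdha, a succinate dehydrogenase subunit, by 0.71, both with overlap.

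None of 27 respiratory chain and ATP synthase genes passed, nor did any of their 47 probe sets, beside 0.927% of all higher and 0.606% lower. The difference was above 0 at 38 of the 47 (80.9%, against 47.3% of all), with a median of 0.26 against -0.02 for all. Atp5f1b, the ATP synthase beta subunit, stood at 8.09, 7.32, 7.78, 7.27 and 7.56 in the controls and at 8.42, 9.00 and 8.43 with IFN-gamma, with no overlap (1.01, limma adjusted p = 0.0974), and Atp5f1a, the alpha subunit, differed by 0.85 with overlap. Of 9 genes of gluconeogenesis and glycogen none passed, with Pygl, liver glycogen phosphorylase, at 0.93 (limma adjusted p = 0.166) and Pygm, the muscle form, at 0.59. Of 7 regulators of these genes none passed, with Nfe2l2, which codes for NRF2, at 0.61 with no overlap (limma adjusted p = 0.297) and Hif1a at 0.58 with overlap (limma adjusted p = 0.684, and 0.28 without control 3).

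The scaling between arrays set the size of several differences, as the plot of 4 scalings shows. Without scaling the median of all probe sets moved up by 0.12 and no enzyme probe set passed, with Taldo1 at 2.34 and Gapdh at 1.75 to 1.91. Of all probe sets called, 60.4% were higher after quantile normalisation, 78.7% with array medians subtracted, 67.8% with a trimmed mean and 97.4% without scaling.

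**Figure D4:**
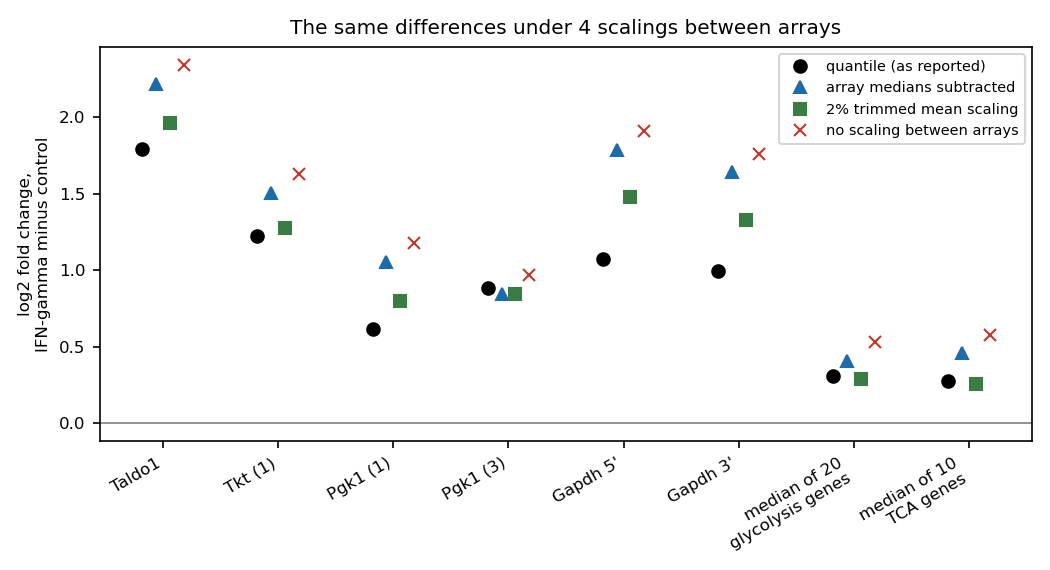
Log2 fold change (IFN-gamma minus control, vertical axis) of 4 enzyme probe sets, 2 Gapdh array controls and the medians of the glycolysis and TCA genes, under quantile normalisation, array medians subtracted, a 2% trimmed mean and no scaling, with 5 control and 3 IFN-gamma cultures. Every point lies above 0, and quantile normalisation gave the lowest value for the Gapdh controls, Tkt and Taldo1.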

How the data were processed

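Biotin-labelled RNA from rat microglia was measured on 10 Affymetrix arrays. The deposited table holds 1 linear signal intensity per probe set and array, made by the authors. Per the submitters' processing notes, MAS5 and GCRMA were used; versions and roles are not given in the sources here. Gene symbols came from the platform annotation, checked against RefSeq (GRCr8); all 65 enzyme probe sets matched. The array's own genome build is not given in the sources here.

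From the deposited intensities log2(signal + 16) was computed and quantile normalised over all 8799 probe sets, and the technical arrays were averaged. R 4.3.3 ran limma 3.58.1 (lmFit, then eBayes, a two-sided test with group as its single term) on 8740 probe sets after the 59 array controls were left out. A gene was represented by its brightest probe set. Array controls and differences between forms of an enzyme were compared by exact two-sided permutation tests over 56 regroupings of the cultures. The limma and exact steps were tested on simulated data. The number of arrays limits precision. Replicates are separate cultures per the labels.

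The enzymes and all lists were chosen with earlier results of these data known. Values per culture are given for enzymes that passed by any probe set, whose groups did not overlap by the brightest probe set, or that had 1 of the 10 largest differences by the brightest probe set, and for a fixed set (Gapdh, Hk1, Hk2, Pfkfb3, Pkm, Idh1, Pdk1). The other named genes and second probe sets were chosen after their values were seen, apart from the largest differences of each neighbouring list and the fixed Slc2a1, Slc2a3 and Hif1a. Alternatives were other scalings, pseudocounts of 4 and 32, filters on dim or less specific probe sets, single technical arrays, a random block (statmod 1.5.0), a trend, a replicate block, probe set means and each culture left out. A further promoter motif is not reported here.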

Additional observations from a re-analysis of the deposited data

Results flagged for a closer look

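In 8 of 46 sets of 5 control values tested, 1 control culture stood far from the other 4 by Dixon's gap test, where chance flags about 1 in 20. Control culture 3, whose array was the dimmest, accounted for 5. It was low for Pgam1 (7.35, others 8.20 to 8.45), Mdh2 (4.36, others 6.74 to 7.21) and Pdha1 (5.21, others 5.91 to 6.10). It was also high for the difference Pgam2 minus Pgam1 (-1.06, others -3.81 to -3.24) and low for Mdh2 minus Mdh1 (-1.68, others -0.11 to 0.27). Both differences reuse the Pgam1 and Mdh2 values already flagged. The 46 sets are therefore not independent, and the count of 8 holds some outlying values more than once. Control culture 2 was high for Pklr (4.96, others 4.29 to 4.42) and, at the floor of the scale, for Eno3 (4.13, others 4.04 to 4.05). Control culture 1 was low for Aldoc (4.32, others 5.24 to 5.37).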

How the results depend on the processing

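The number of enzyme probe sets called higher (2) was 0 without scaling and 1 with a trimmed mean. For IFN-gamma culture 1, array 1a or 1c alone gave 1. Array 1b alone gave 2, Taldo1 and the dimmer Suclg1 probe set. The number was 3 with array medians subtracted, with dim probe sets left out and with a trend in the prior. It was 4 with a random block, where the dimmest Pgk1 probe set was not among them. Over all 8740 probe sets, 81 were higher as reported, 38 without scaling, 82 with a trimmed mean and 100 with array medians subtracted. With array 1a, 1b or 1c alone 75, 90 and 76 were higher, with a trend 105 and with a random block 124. With dim probe sets left out it was 94 of 4180. Leaving out cultures gave 0 to 2: 0 without any 1 IFN-gamma culture, and 1 without control 3, 5 or 6. Of all probe sets, 47 to 106 were higher with a culture left out. Probe sets above all controls (12) numbered 6 with less specific probe sets left out and 13 to 17 with a culture left out. Those below all controls (0) numbered 1 with a trimmed mean, 1 with array 1c alone and 0 to 3 with a culture left out. Leaving a culture out can only keep or raise both of these counts. The shares of all probe sets above or below all controls were not computed for these settings, so the changes say little about the enzymes. The medians moved without scaling to 0.53 (glycolysis), 1.98 (pentose phosphate) and 0.58 (TCA), with array medians subtracted to 1.86 (pentose phosphate) and 0.46 (TCA), to 0.41 (glycolysis) without dim probe sets and to 0.10 (TCA) with array 1c alone. With a culture left out they ran from 0.20 to 0.36, 1.32 to 1.67 and 0.14 to 0.36. Gapdh missed the unadjusted threshold without scaling in the middle (1.75) and at the 3′ end (1.76, both exact permutation p = 0.0536), and relative to beta-actin (0.28 and 0.40). No called value changed sign, and 27 uncalled ones did, with at least 1 of the values, before or after, within its standard error. The cause of these changes was not tested.

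Culture numbers 1, 2 and 3 occur in both groups, but deviations of same-numbered cultures had correlations of -0.03, 0.00 and -0.01, so the numbers were not taken to pair them. With the replicate block, over 6 cultures, 0 enzyme probe sets passed, 3 lay below all controls, and Taldo1 was at 1.72 (limma adjusted p = 0.104). Using fewer cultures can only keep or raise the count below all controls, and its share of all probe sets was not computed. Over all probe sets 17 were higher and 5 lower.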
